A study of Mus musculus with 4 samples.

Results

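Short valleys between solid H3K27ac peaks were described in primary epithelial progenitor cells. The cells came from salivary glands of adult mice aged 12 weeks, all wild type for p63. A valley was an interval of 100 to under 500 bases from the end of one H3K27ac peak to the start of the next on the same chromosome, with both neighbouring peaks, its flanks, at least 300 bases wide. The valleys were thus chosen by the positions and widths of the H3K27ac peaks, and no p63 position enters the rule. The rule was set with the density of p63 in short gaps of these lists already known. Of 183737 intervals between neighbouring peaks, 25554 were 100 to under 500 bases long, and 5907 of these had both flanks solid and form the valleys. The study sequenced 4 libraries, each the only one of its group: ChIP-seq (immunoprecipitated chromatin, sequenced) with the mouse monoclonal antibody 4A4 to p63 and with an antibody to H3K27ac, and an input for each. Analysed here were lists of 4130 p63 peaks and 183757 H3K27ac peaks on the mm9 mouse build, each called with 1 ChIP library against 1 input. Peak positions alone were used, so the depth of the libraries is unknown, the labelled cell type could not be set against marker genes, and no region was assigned to a gene. With 1 library a group no test between samples can be made. Intervals below are 95% intervals that treat p63 peaks as independent and cover counting error only.

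Acetylation of lysine 27 of histone H3, laid down mainly by the coactivators p300 and CBP, marks nucleosomes at active enhancers and promoters. Because the mark sits on nucleosomes, a bound stretch of DNA that has lost its nucleosome often appears as a dip between acetylated shoulders. p63, a transcription factor of the p53 family, maintains basal epithelial progenitors and is made in basal duct cells and myoepithelial cells of the salivary gland. In a peak list such a dip is a gap between called peaks, and its edges depend on how peaks were called.

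The valleys were short and lay mostly toward the lower end of the range. Their median length was 214 bases (quartiles 155 and 307), and they took up 1.41 Mb, which is 0.0549% of the 2568 Mb from first to last peak summed over chromosomes. There were 2651 valleys of 100 to under 200 bases, 1690 of 200 to under 300, 985 of 300 to under 400 and 581 of 400 to under 500. The commonest single length was 150 bases, with 55 valleys, whereas the other lengths from 140 to 160 bases had 19 to 36 each. The smallest width of any H3K27ac peak was also 150 bases, shared by 39798 peaks, and the smallest interval between peaks was 52 bases. None of the 55 valleys of 150 bases held a p63 midpoint (Wilson interval up to 6.53%), which does not set them apart from the 2.72% of all valleys of 100 to under 200 bases.

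The rule sets a lower limit on flank widths and an upper one on valley lengths, so most flanks are wider than their valley. The wider flank had a median of 717 bases (quartiles 523 and 1068) and the narrower one 412 bases (quartiles 344 and 551), and in the longest class the median valley of 443 bases was longer than the median narrower flank of 400 bases. From outer edge to outer edge, a valley with its flanks spanned a median of 1413 bases. Flank widths were unequal at most valleys, but with no preferred side. The wider flank was a median of 1.54 times the narrower one (quartiles 1.21 and 2.17). The left flank was the wider one at 2911 valleys, the right one at 2981, and at 15 they were equal. In 1404 valleys (23.8%) the ratio was under 1.2, in 1795 (30.4%) it was at least 2 and in 666 (11.3%) at least 3. The widths of the left and right flanks were only weakly related across valleys (Spearman rho = 0.11 over 5907 valleys, some of which share a flank). Valley length was related neither to summed flank width (rho = -0.08) nor to asymmetry (rho = -0.05) beyond a weak tendency.

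**Figure D1:**
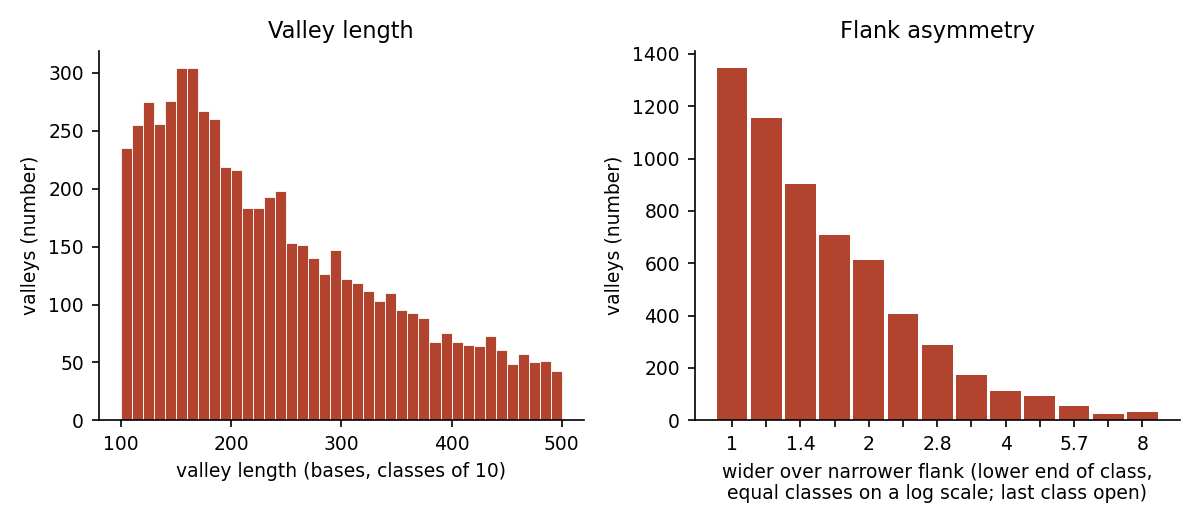
Left, number of valleys in length classes of 10 bases. Right, number of valleys by the width of the wider flank over that of the narrower one, in classes of equal width on a log scale with the last class open. Valleys of 100 to under 200 bases are the most numerous, and the number of valleys falls steadily as the flanks become less equal.

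Most valleys (63.5%) shared no flank with another, and the rest stood in runs. Of the 33842 H3K27ac peaks of at least 300 bases, 10577 (31.3%) flanked a valley. Their median width was 526 bases, against 407 bases for the 23265 solid peaks that flanked none. They also stood nearer the top of the deposited list, which is not in genome order: 86.3% of flanking peaks were in its first 45939 rows, against 61.4% of other solid peaks. What ranks the rows was not used here. Counted as runs, 3751 valleys shared no flank with another, 699 pairs of valleys shared one, and 758 valleys stood in runs of at least 3. The longest run had 8 valleys of 119 to under 300 bases. It ran from chromosome 12:8777427-8777576 to chromosome 12:8795894-8796192, and none of its 8 valleys held a p63 midpoint, a count too small to set against the 3.98% of all valleys. The nearest midpoint lay 1427 bases from a valley of the run.

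p63 peaks were centred in the valleys more often than in the acetylated DNA beside them. In all, 235 valleys (3.98%, Wilson interval 3.51 to 4.51%) held the midpoint of a p63 peak, and none held more than 1. For each valley, mirror windows of the same total length were made by reflecting the left and right side of the valley, each from edge to centre, over its own edge into the flank. The mirror windows of 60 valleys (1.02%, Wilson interval 0.790 to 1.31%) held a midpoint. The valleys exceeded their mirror windows 3.92 times (exact interval 2.94 to 5.29). Since short gaps were taken up because p63 was known to be dense in them here, this excess is a description of these lists and no independent evidence. Among all 25554 intervals of 100 to under 500 bases, whatever their flanks, 2.12% held a p63 midpoint. Per Mb there were 167 midpoints in valleys (exact Poisson interval 146 to 189), 42.6 in mirror windows (32.5 to 54.8), 34.3 in the whole flanking peaks and 27.3 in solid peaks that flanked no valley. Over the whole span, the p63 list held 1.61 midpoints per Mb. Valleys thus held 5.69% of all p63 peaks. No valley had a midpoint both inside it and in its mirror windows.

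The ratio of valleys over mirror windows depended on how contact with p63 was counted. When any shared base counted in place of the midpoint, 295 valleys (4.99%) met p63. The ratio over mirror windows was then 1.14 (exact interval 0.964 to 1.36). Here a ratio of 1 does not stand for evenly spread p63. The left and right mirror windows lie apart, so together they have more edges for a peak to reach over than the valley. The ratio for evenly spread p63 was not worked out, so no excess or lack is read from this value. Of the 235 p63 peaks centred in a valley, 165 (70.2%) reached over an edge and so also touched a mirror window. Of the 60 centred in a mirror window, 53 reached into the valley. By length, the ratio for any shared base was 0.875 (exact interval 0.667 to 1.15) at 100 to under 200 bases and 1.1 (0.818 to 1.48) at 200 to under 300. It was 1.74 (1.12 to 2.73) at 300 to under 400 and 2.20 (1.16 to 4.36) at 400 to under 500, above 1 in these longer classes. In valleys under 300 bases the excess was thus seen for p63 centres. The ratio for any shared base does not show whether contact was even there, and the bases covered by p63 were not compared.

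By length, the share of valleys with p63 rose and that of the mirror windows did not. In valleys of 100 to under 200 bases, 72 of 2651 (2.72%, Wilson interval 2.16 to 3.41%) held a midpoint, against 29 mirror windows (1.09%). In valleys of 200 to under 300 bases it was 79 of 1690 (4.67%, interval 3.77 to 5.79%), against 21 (1.24%). These classes had intervals that did not overlap. At 300 to under 400 bases it was 53 of 985 (5.38%, interval 4.14 to 6.97%), against 7 (0.711%), and at 400 to under 500 bases 31 of 581 (5.34%, interval 3.78 to 7.47%), against 3 (0.516%). The 3 longer classes did not differ beyond their intervals. The ratio of valleys over mirror windows was 2.48 (exact interval 1.59 to 3.96) in the shortest class, then 3.76 (2.30 to 6.41), 7.57 (3.43 to 19.7) and 10.3 (3.22 to 52.8) in the longest. The intervals of all pairs of classes overlapped in this ratio, also those of the shortest and the longest. The ratios of the 300 to under 400 and 400 to under 500 base classes rest on 7 and 3 mirror windows.

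A longer valley also has more bases in which a midpoint can fall, so densities were set beside the shares. Per Mb of valley there were 182 midpoints (exact Poisson interval 142 to 229) at 100 to under 200 bases, 190 (151 to 237) at 200 to under 300, 156 (117 to 204) at 300 to under 400 and 120 (81.3 to 170) at 400 to under 500. The density did not rise with length. Of the 6 pairs of classes, the density ratio had an interval below 1 in 1 pair, 0.628 times (exact interval 0.401 to 0.963) at 400 to under 500 bases over 200 to under 300, with no adjustment for the number of pairs. Against the shortest class the longest had 0.658 times the density (0.418 to 1.02). Mirror windows had 73.2, 50.6, 20.6 and 11.6 midpoints per Mb in the same classes. Mirror windows of longer valleys also reach deeper into the flanks, where midpoints were sparser, as the values by distance from the edge show.

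**Figure D2:**
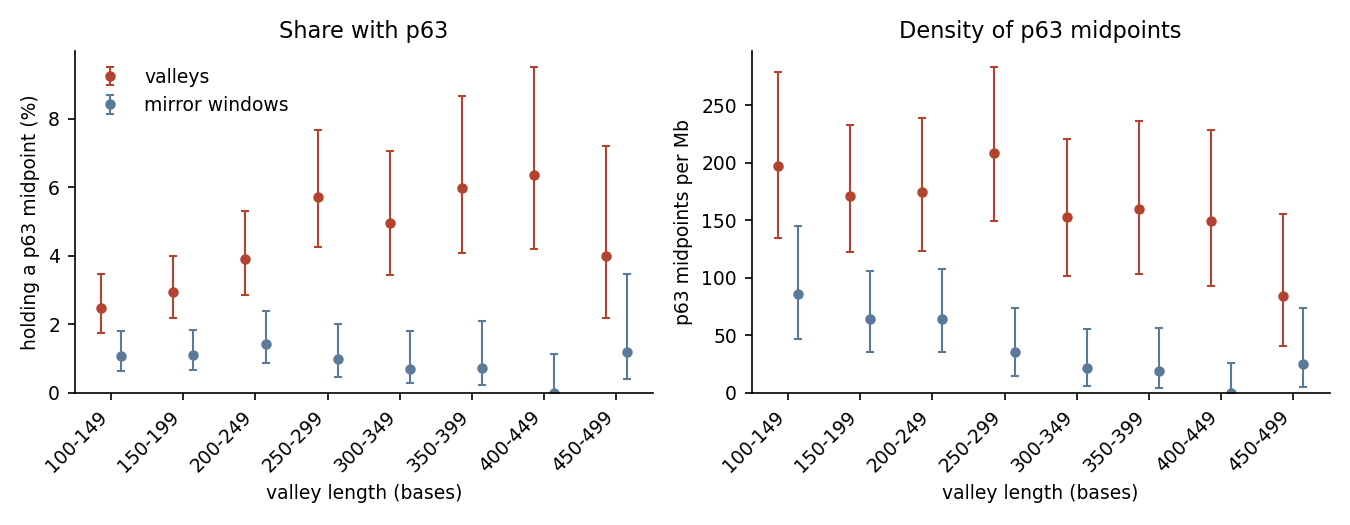
Share of valleys and of mirror windows holding a p63 midpoint (left, Wilson 95% intervals) and p63 midpoints per Mb (right, exact Poisson 95% intervals), by valley length in classes of 50 bases. The value in valleys is above that in mirror windows in every class. In the shortest class, with 32 valleys against 14 mirror windows, the intervals overlap in both panels. They also overlap at 450 to under 500 bases, with 10 valleys against 3 mirror windows.

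p63 midpoints fell off over a short distance at the valley edge. In the outermost 25 bases of the valley there were 132 midpoints per Mb (exact Poisson interval 93.9 to 180), against 84.7 (54.8 to 125) in the first 25 bases of the flank. Between 50 and 75 bases from the edge the valley had 179 per Mb (131 to 237), against 37.2 (18.6 to 66.6) in the flank. Between 100 and 150 bases it was 189 (137 to 253) in the valley, against 28.8 (16.8 to 46.1) in the flank. Counted from the valley centre, there were 179 midpoints per Mb within 100 bases (156 to 205), 72.0 from 100 to 200 bases and 23.7 (17.9 to 30.8) from 200 to 400 bases. Farther out, at 600 to 1000 bases, the density was 39.2 per Mb (33.7 to 45.2), above that at 200 to 400 bases beyond the intervals. At 400 to 600 bases it was 30.5 (23.8 to 38.4), overlapping both. Positions farther out can lie past the narrower flank, which had a median width of 412 bases. Around the valleys, midpoints were thus densest near the centre and sparsest 200 to 400 bases from it. Within the flank they were denser next to the valley edge than deeper in.

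**Figure D3:**
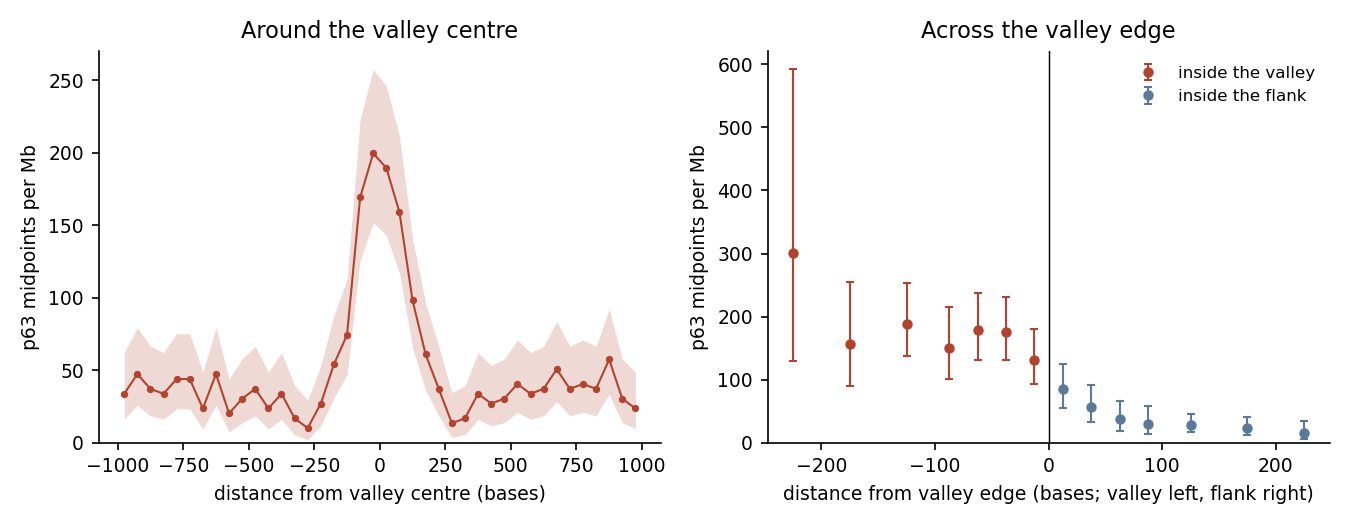
p63 midpoints per Mb by distance from the valley centre in bins of 50 bases (left) and by distance from the valley edge (right; valley side left of the line, flank side right of it), with exact Poisson 95% intervals. The density is highest at the centre, is lower in the flanks at every distance from the edge and lowest 200 to 400 bases from the centre.

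Within the valleys, p63 was spread over the whole length, with a lean to the middle in the longest ones. Of the 235 midpoints, 89 (37.9%, exact interval 31.7 to 44.4%) lay in the central part of their valley that holds 33.3% of the bases. The equal parts to its left and right held 80 and 66. In the 4 length classes the central part held 21 of 72 midpoints (29.2%), 27 of 79 (34.2%), 22 of 53 (41.5%) and 19 of 31 (61.3%, exact interval 42.2 to 78.2%), from shortest to longest. Only in the longest class did the interval lie above the share of bases. The median distance from the valley centre was 37.75 bases in the shortest class, 63.5 and 68 in the next ones and 58.5 in the longest, so it did not grow in step with length above 200 bases.

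With unequal flanks, no shift of p63 to either side was detectable, though all 3 shares leaned to the wider flank. Of 233 midpoints that could be placed, 130 (55.8%, exact interval 49.2 to 62.3%) were on the side of the valley next to the wider flank. Where the wider flank was at least 2 times the narrower one, it was 39 of 62 (62.9%, exact interval 49.7 to 74.8%). In mirror windows, 34 of 60 midpoints (56.7%, exact interval 43.2 to 69.4%) were in the wider flank. All 3 intervals include an even split. By asymmetry, the share of valleys with p63 was 4.27% of the 1404 valleys with a ratio under 1.2, 4.88% of the 1415 from 1.2 to under 1.5, and 3.40%, 3.45% and 3.45% in the classes from 1.5 to under 2, from 2 to under 3 and from 3 up, with overlapping intervals.

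The p63 peaks themselves were about as wide as the median valley, of 214 bases, and wider than the shorter valleys. Those centred in valleys were 213 bases wide at the median (quartiles 165 and 254, highest 428), with an order-statistic interval of 201 to 227. Those centred in mirror windows had a median of 209 (interval 182 to 231), a difference of 4 bases that is well within these intervals. The other 3835 p63 peaks of the list had a median of 179 (interval 177 to 182), below the interval of those in valleys. Width did not follow the length of the valley (Spearman rho = 0.03 over 235 peaks). How the peak lay on the valley therefore changed with valley length. In valleys of 100 to under 200 bases, 33 of 72 p63 peaks reached over both edges and 3 lay inside. In valleys of 400 to under 500 bases, 0 of 31 reached over both edges and 21 lay inside. Over all valleys, 70 of 235 p63 peaks lay wholly inside, 130 reached over 1 edge and 35 over both.

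Solid flanks on both sides went with more p63 than narrow ones. Of the 10091 intervals of 100 to under 500 bases with 1 solid flank, 193 (1.91%, Wilson interval 1.66 to 2.20%) held a p63 midpoint, and of the 9556 with none, 115 (1.2%, interval 1.0 to 1.44%). The valleys, at 3.98%, exceeded the intervals with 1 solid flank 2.08 times (exact interval 1.71 to 2.53) and those with none 3.31 times (2.63 to 4.17). Lengths differed slightly, with medians of 214, 239 and 266 bases. At the mix of length classes of the valleys, the other shares became 1.79% and 1.05%, and the valleys exceeded them 2.22 and 3.80 times. The order held in each length class from 100 to under 500 bases. It was 5.38%, 2.53% and 1.66% at 300 to under 400 bases, for 2, 1 and 0 solid flanks. At 400 to under 500 bases the valleys exceeded intervals with 1 solid flank 1.72 times (1.05 to 2.77). Outside the valley range, the ratio was 1.47 (0.948 to 2.23) at 500 to under 750 bases. At 750 to under 1000 bases it was 0.887 (0.304 to 2.14), and both are within counting error of 1. H3K27ac peaks under 300 bases themselves had 6.55 midpoints per Mb (exact Poisson interval 5.64 to 7.56), against 34.3 in the peaks flanking valleys. Intervals of 100 to under 500 bases with no solid flank had 43.2 per Mb, and the valleys 167. More p63 in gaps than in peaks was thus not particular to solid flanks.

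Taken over all lengths, the share with p63 was higher where the narrower flank was wider. The share with p63 was 3.04% (Wilson interval 2.46 to 3.75%) where the narrower flank had 300 to under 400 bases, 4.21% at 400 to under 600, 5.29% at 600 to under 1000 and 7.85% (19 of 242, interval 5.08 to 11.9%) at 1000 bases or more. The lowest and highest classes did not overlap. By length, the shares for narrower flanks of 300 to under 400, 400 to under 600 and at least 600 bases were 1.77%, 2.80% and 4.67% in valleys of 100 to under 200 bases, and 3.02%, 5.56% and 6.96% at 200 to under 300. The lowest and highest of each of these length classes had intervals that did not overlap. At 300 to under 400 bases they were 5.07%, 4.85% and 7.10%, and at 400 to under 500 bases 4.86%, 5.61% and 6.19%, with overlapping intervals in both, so no grading was detectable in the longer valleys. Median valley lengths ran from 220 bases in the lowest class to 198.5 in the highest, so longer valleys did not go with the rise. Mirror windows held 0.879%, 1.12%, 1.01% and 1.65% in the same classes, with overlapping intervals. A shared flank made no detectable difference: 3.73% (interval 3.17 to 4.39%) of the valleys that share no flank held p63, and 4.88% (3.56 to 6.66%) of those in runs of at least 3.

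**Figure D4:**
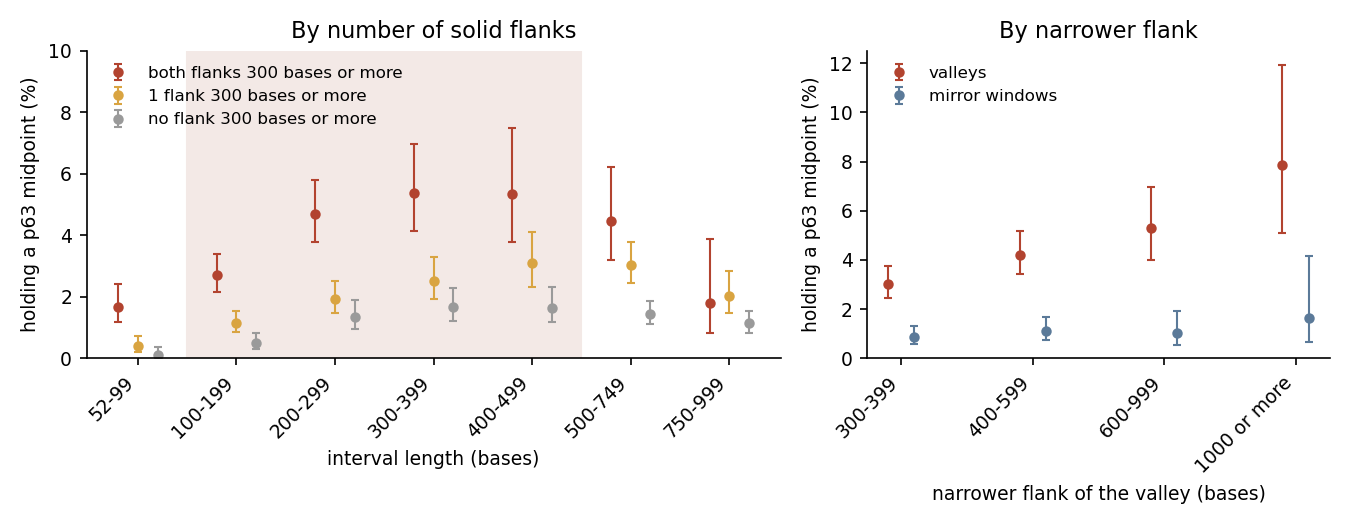
Left, share of intervals holding a p63 midpoint by interval length, for intervals with both flanks, 1 flank or no flank of 300 bases or more; the shaded range is that of the valleys. Right, the same share in valleys and in their mirror windows by the width of the narrower flank. Bars are Wilson 95% intervals. Intervals with both flanks solid are highest at every length under 750 bases, and the share in valleys rises from 3.04% to 7.85% with the narrower flank.

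Few intervals lay just on either side of the length thresholds, too few to show whether there is a step. With solid flanks, 4 of 235 intervals of 100 to under 110 bases (1.70%) held a midpoint, and 11 of 321 of 90 to under 100 bases (3.43%), against the direction of the rise with length. At the upper limit it was 3 of 43 intervals of 490 to under 500 bases (6.98%) and 1 of 46 of 500 to under 510 bases (2.17%). With a narrower flank of 300 to under 350 bases, 46 of 1635 intervals (2.81%) held one, and with 250 to under 300 bases 52 of 2489 (2.09%). Density, by contrast, was lower in longer intervals between solid flanks: 73.8 midpoints per Mb (50.8 to 104) at 500 to under 750 bases and 21.1 (7.76 to 46.0) at 750 to under 1000. Under 100 bases it was 228 per Mb (152 to 327, from 29 midpoints).

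The 8 valleys with p63 and the widest summed flanks had 101 to 262 bases. The first lay at chromosome 2:157255562-157255763 (202 bases), between flanks of 4485 and 1218 bases. Its p63 peak of 132 bases was centred 87.5 bases from the valley centre, near the narrower flank. The second, chromosome 7:19949343-19949498 (156 bases), lay between flanks of 4126 and 1251 bases, with a p63 peak of 261 bases that covered it from edge to edge. Next came chromosome 16:92626889-92627058 (170 bases), with flanks of 2296 and 3003 bases, and chromosome 19:8784781-8784881 (101 bases), with flanks of 1702 and 3521 bases. The p63 peaks there had 229 and 233 bases, wider than the valleys. The valley at chromosome 10:18567801-18568062 had 262 bases and a p63 peak centred 112 bases from its middle, at its left end. The other 3 lay at chromosome 4:133372262-133372413, chromosome 7:29704704-29704865 and chromosome 15:77646320-77646476, with p63 peaks of 139, 256 and 228 bases.

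Some p63 peaks were centred almost exactly. At chromosome 17:75706373-75706711 (339 bases), a p63 peak of 220 bases at 75706432-75706651 sat at the very middle, between flanks of 478 and 342 bases. At chromosome 7:106175734-106176162 (429 bases) a peak of 205 bases was 1 base off the centre, with flanks of 435 and 539 bases. At chromosome 1:90433556-90433763 (208 bases) it was 3.5 bases off. At chromosome 5:91539149-91539291 (143 bases) a p63 peak of 335 bases was centred on the valley and reached well over both edges.

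**Figure D5:**
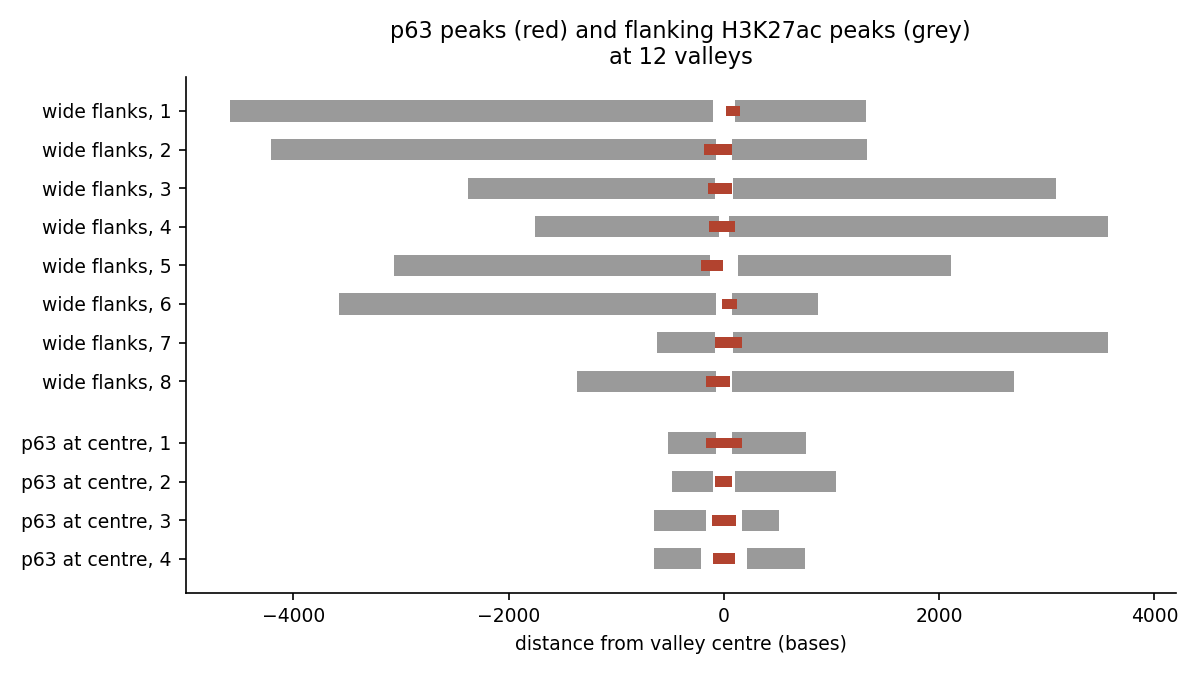
The 8 p63-holding valleys with the widest summed flanks (top) and the most centrally placed p63 peak of each length class (bottom, shortest class first), drawn by distance from the valley centre in bases. Grey bars are the flanking H3K27ac peaks and red bars the p63 peaks. In the bottom rows the p63 peaks have 335, 165, 220 and 205 bases.

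Asymmetric and even valleys both held p63. The most asymmetric one, chromosome 11:115819549-115819928 (380 bases), had flanks of 3333 and 332 bases, and its p63 peak of 167 bases was centred 134 bases from the middle, toward the wider flank. The next were chromosome 7:29704704-29704865, with flanks of 537 and 3491 bases, and chromosome 19:9062288-9062414, with flanks of 423 and 2318 bases. The most even one, chromosome 8:114256853-114257057 (205 bases), had flanks of 1515 and 1514 bases, and its p63 peak of 187 bases was centred 79 bases from the middle. At chromosome 4:133155589-133155776 (flanks of 911 and 908 bases) the p63 peak had 417 bases, and at chromosome 15:36773161-36773373 (flanks of 603 and 600 bases) it had 212 bases and lay 15 bases off the centre.

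The 5 valleys without p63 that had the widest summed flanks were named for contrast, and at a share of 3.98% most valleys of any width hold none. The largest sum of both flanks was at chromosome 12:8785063-8785181 (119 bases), with flanks of 6851 and 5781 bases, and the nearest p63 midpoint was 3925 bases away. The valleys at chromosome 13:31898358-31898651 and chromosome 13:31909701-31909837 border the same peak of 11049 bases on either side, with the nearest p63 midpoints 13445 and 2259 bases away. At chromosome 11:18911807-18912032 the nearest was 263877 bases away, and at chromosome 5:143579279-143579690, a valley of 412 bases between flanks of 5088 and 4453 bases, 5572 bases.

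Across chromosomes the direction was the same wherever p63 was found. More valleys than mirror windows held a midpoint on all 19 autosomes, from 2 against 1 on chromosome 18 to 24 against 4 on chromosome 7. The share of valleys with p63 was 3.97% ± 1.28 (mean and SD over 19 autosomes). Chromosome X had 59 valleys, or 1.18 per 100 H3K27ac peaks, whereas the autosomes had 3.24 ± 0.664 per 100 (SD). None of the 59 held a p63 midpoint, and neither did their mirror windows; the Wilson interval for 0 of 59 reaches 6.11%, so a share like that of the autosomes would not have been detectable as different.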

How the data were processed

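The deposited data are 2 lists of peak positions (chromosome, start and end, with no score, fold or p-value), each from 1 ChIP library and 1 input, per the labels. The submitters' processing notes name the aligner Bowtie 1.1.1, the peak caller MACS2 2.1.0 and the build mm9; their settings, peak thresholds and read filters were not given in the sources used here. No mm9 genome or annotation was used, so no sequence is printed and the planned motif count was not run. H3K27ac rows were sorted by position, intervals were taken between neighbouring rows, and starts are printed counted from 1. A p63 midpoint was the mean of start and end, rounded down. Intervals are Wilson or exact (Clopper-Pearson) for shares, exact Poisson for densities, exact conditional for ratios of counts, and by order statistics for medians. The counting was tested on simulated data. The valleys, and the kinds of comparison, were chosen with earlier results of these data known, among them that p63 is dense in short gaps. Regions were named by rule: the 8 valleys with p63 and the 5 without with the widest summed flanks, the 3 most and 3 least asymmetric with p63, and the most central in each length class; no valley held more than 1 p63 midpoint. The longest run was chosen after its values were seen. Alternatives changed the flank minimum, the mirror windows, the peaks used and the definition of p63 contact. Tools were scipy 1.17.1, numpy 2.4.6, matplotlib 3.10.9 and pandas 2.3.3 under Python 3.11.15.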

Additional observations from a re-analysis of the deposited data

How the results depend on the processing

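Of 110 alternatives, 90 stayed close to the reported value. Among them, 5 counts of valleys have no interval and were judged by the size of the change alone. The others lay within the counting interval of the reported value. Direction was required only where that interval excluded an even value. The difference in p63 width, 4 bases, was thus kept although it was -3.5 with valleys that share no flank. The valleys on chromosome X and those of 150 bases had no p63 midpoint, nor did their mirror windows. Leaving either out could therefore change no p63 result except the ratio over intervals with a narrow flank, and these alternatives are counted among the 90. The number of valleys, 5907, depended on the flank minimum: 12755 at 200 bases, 3176 at 400 and 1892 at 500. The excess of valleys over mirror windows, 3.92 times, was above 1 in all 12 alternatives. It was 7.83 with windows in the middle of the flanks and 1.14 when any shared base counted, where 1 does not stand for evenly spread p63. By length class, any shared base gave 0.875 at 100 to under 200 bases, below 1 with an interval that included 1, then 1.1, 1.74 and 2.20. Windows in the middle of the flanks gave 9.0 at 100 to under 200 bases and 9.88 at 200 to under 300. With only p63 peaks under the median width of 181 bases the ratio was 2.20 at 100 to under 200 bases and 7.0 at 400 to under 500, both with intervals that reached 1. With flanks of 200 bases, some mirror windows reach past the flank, which bears on the ratio over mirror windows there, 3.61. Midpoints in the middle of the valley were 1.14 times their share of the bases. The interval lay above 1 with flanks of 200 bases (1.21) and for the central 50% of the bases (1.15). The share next to the wider flank moved to 62.9% where that flank was at least 2 times the narrower. Valleys over intervals with a narrow flank, 2.54 times, moved to 2.03 (p63 peaks under that width), 2.12 (first 91878 H3K27ac rows), 3.31 (both flanks narrow) and 2.08 (1 flank narrow). Leaving out valleys of 150 bases, joining rows less than 100 bases apart and matching lengths were chosen after seeing the data. No paired analysis was possible because no group has a second library. The depth of the libraries is not known, so a valley without a called p63 peak is not shown to lack p63, and valley edges depend on the peak caller's settings.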

Other observations

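p63 peaks centred in valleys had p63 neighbours more often than the rest of the list. Of the 235, 61 (26.0%, Wilson interval 20.8 to 31.9%) had another p63 midpoint within 10 kb, against 538 of the other 3895 (13.8%, interval 12.8 to 14.9%). In 2 runs of valleys, more than 1 valley held p63. This comparison was chosen after the lists were seen, and neighbours are counted from both sides.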
